A study of Mus musculus with 12 samples.

Results

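The late minus early effect of leukemia is the change that MEC1 cells bring to bone marrow monocytes and macrophages at 31 d, minus the change they bring at 21 d. It was computed from all 12 of the 12 samples of the series, which the titles place in 4 groups of 3 replicates: with or without MEC1, at 21 d or at 31 d. MEC1 is a human cell line from chronic lymphocytic leukemia, and the hosts were Rag2-/-gamma c-/- mice on a BALB/c background, which lack T, B and natural killer lymphocytes. The leukemic mice received MEC1 cells intravenously, and the controls were Rag2-/-gamma c-/- mice of matched age with no MEC1. The mice were 11 weeks old at 21 d and 13 weeks old at 31 d, so the day and the age of the control mice cannot be told apart. The myeloid cells were taken from the marrow by magnetic separation, and their total RNA was hybridised to Clariom D arrays, which carry probe sets for coding and non-coding transcripts. The titles number 3 replicates per group, and each array was taken as a separate mouse. Of the transcript clusters on the array, 37240 were tested, and the cluster with the highest mean stood for each of 19490 named genes.

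Bone marrow monocytes and macrophages respond to a tumour in their niche in stages. Some genes respond as soon as leukemic cells settle, some respond in proportion to tumour load, and acute-phase and antimicrobial genes often rise late, when inflammation is systemic. Chronic lymphocytic leukemia cells depend on such myeloid neighbours for chemokines and survival signals, and an expanding leukemia also displaces red cell formation from the marrow. A comparison of the late with the early effect asks which changes were complete by 21 d, which became larger, which began later and which turned round. It also asks how much of each difference came from control mice that themselves differed between the days.

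All values are log2 intensities, on which a difference of 1 is a 2-fold change. The late minus early difference of a gene is its effect at 31 d minus its effect at 21 d. The same number is the change from 21 to 31 d in MEC1 mice minus the change from 21 to 31 d in control mice. The share of a difference that lies in the controls is the second of these parts with its sign turned, in percent of the difference. A negative share means that the controls moved in the direction of the difference and so made it smaller, and a share over 100% means that the controls moved further than the whole difference. The control arrays enter both a difference and its control share, so the shares are a description.

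The arrays did not vary alike in all groups. The first principal component held 60% of the variance and placed MEC1 21 d replicate 3 at -11.4, between the controls (-87.8 to -58.2) and the other MEC1 21 d mice (35.2 and 71.1). MEC1 31 d replicate 3 lay farthest from the controls, at 169. The spiked hybridisation controls, which are added in equal amount to every array, averaged 10.81, 11.92, 10.62 and 12.57 in control 21 d, MEC1 21 d, control 31 d and MEC1 31 d, and so had a difference of 0.85 of their own. Named genes with a mean level up to 4 had a median difference of 0.22 and those between 12 and 14 one of -0.68, so bright genes leaned down and dim genes leaned up. The part of these array-wide shifts in the results was not tested gene by gene. Only some fits that scale or adjust for them are given beside the results. With the hybridisation controls as a covariate, which moves with the groups, 4 clusters were called at 21 d and 7 at 31 d. The late calls of Il1r2, Cxcl13, Stfa2l1, Vcan, Abca9, Ighm and Hsph1 were lost in that fit (limma, adjusted p = 0.0842 to 0.72). Late effects that turned sign in it are listed in the section on processing.

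The monocyte gene Lyz2 lay at 19.27 to 19.39 in the control mice and at 16.24 to 18.87 in the MEC1 mice, and 18 markers of classical monocytes averaged 12.77, 12.11, 12.61 and 12.11 in control 21 d, MEC1 21 d, control 31 d and MEC1 31 d, with the lowest array, MEC1 31 d replicate 3, at 11.19. Lyz2 is also abundant in neutrophils. Markers of neutrophil granules and receptors (24 genes) averaged 11.11, 11.06, 11.63 and 10.77 in the 4 groups in the same order, so neutrophil markers were high throughout, with the lowest array, at 9.504, being MEC1 31 d replicate 3. Erythroid markers (19 genes) averaged 10.4, 7.705, 10.87 and 5.488, and MEC1 21 d replicate 3, at 9.645, was the MEC1 mouse nearest the controls. Their part in the results below was not tested.

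One gene passed the test of the difference itself. Il1r2, the decoy receptor that binds interleukin 1 without signalling, was the single cluster called among 37240 (limma, adjusted p under 0.05), which is 0.00269% of those tested; 4793 clusters (12.9%) had an unadjusted p under 0.05. With 1 cluster per gene in the fit and in the adjustment 13 genes were called, among them Stfa2l1, Clec4d, Cstdc4, Dpep2, Arg2, Ccl8 and Vegfa up and Ighm down. The within-day effects were far more numerous. At 21 d 1135 named genes (5.82%) changed, 498 up (2.56%) and 637 down (3.27%). At 31 d 9859 (50.6%) changed, 4198 up (21.5%) and 5661 down (29.0%). Between the days, 58 named genes (0.298%) changed in MEC1 mice, 39 up (0.200%) and 19 down (0.0975%), and 2 (0.0103%) changed in control mice, both down. The standard error of a difference of differences was larger (median 0.31) than that of a within-day effect (median 0.22).

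The courses were therefore described by size, without a test, and the names that follow carry no more than that. A course was complete early when both effects were at least 1 in the same direction, differed by less than 1 and stood in a ratio of 0.67 to 1.5. It was larger late when the early effect was at least 1 and the difference added at least 1 more. It was of late onset when only the late effect reached 1 and the difference did too, split into flat early, with an early effect under 0.5, and partly present early. It was smaller late when a difference of at least 1 ran against an early effect of at least 1, and reversed when the difference was at least 1, the sign turned and the early effect was at least 0.5. A gene whose sign turned from an early effect under 0.5, such as Il1r2, counted as late onset. A difference of at least 1 was found for 2225 named genes (11.4%), of which 650 were up (3.34%) and 1575 down (8.08%).

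By these sizes 488 genes were complete early, 341 down and 147 up. The effect was larger late in 588 genes, 240 down and 348 up. Late onset was found for 855 genes that were flat early (730 down, 125 up) and 537 that were partly present early (446 down, 91 up). It was reversed in 86 genes, 43 in each direction, and smaller late in 27, 19 of them with an early decrease. A further 2473 genes had a late effect of at least 1 without a difference of that size. By the tests within each day, 621 genes were called in both, in the same direction and at a similar size, and for 363 of them the 95% interval of the difference lay between -1 and 1.

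**Figure D1:**
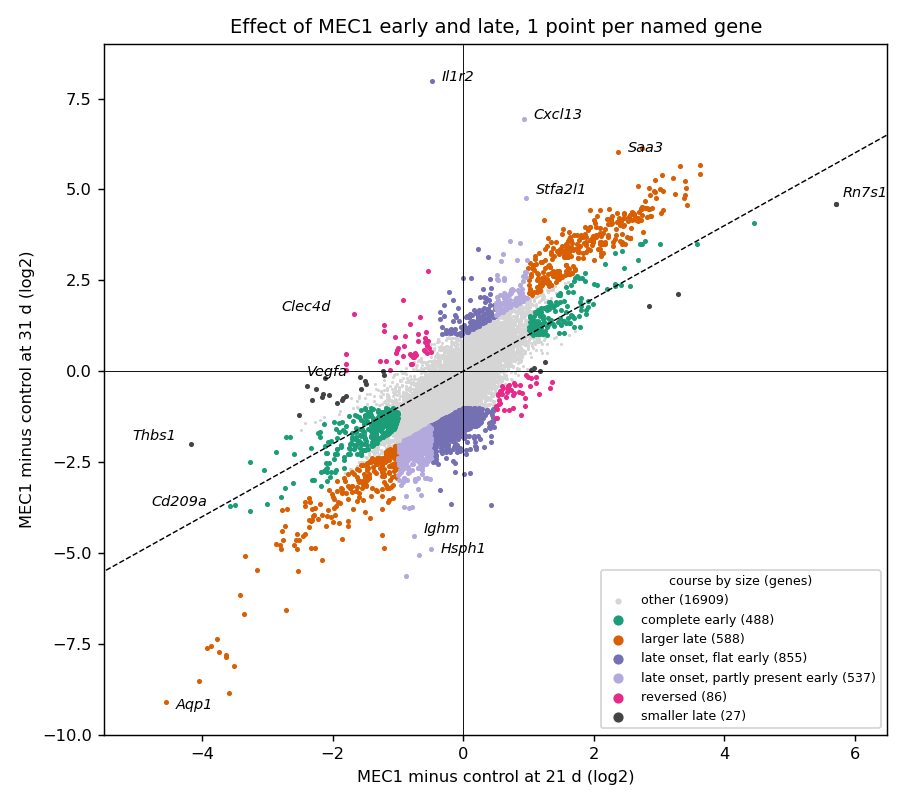
Each point is a named gene, with its MEC1 minus control effect at 21 d on the horizontal axis and at 31 d on the vertical axis (log2); colours mark the courses by size, and the dashed line marks equal effects. Il1r2 stands alone at an early effect of -0.48 and a late effect of 7.97, the genes that were larger late lie beyond the dashed line in both directions, and Rn7s1 and Thbs1 lie on its other side.

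The split between up and down depended on the scaling. The 650 up and 1575 down became 839 and 875 after quantile normalization, 867 and 435 after cyclic loess, 454 and 2712 with arrays centred on their median and 708 and 461 with the hybridisation controls as a covariate. Single arrays also moved it, to 488 up and 845 down without MEC1 21 d replicate 3, to 562 and 804 without MEC1 31 d replicate 3, and to 854 and 2458 without MEC1 21 d replicate 1. Late onset with a decrease, 1176 genes in all, became 529 without MEC1 21 d replicate 3, 515 without MEC1 31 d replicate 3 and 243 after cyclic loess. The 348 genes that were larger late and up became 267 without MEC1 21 d replicate 3, 289 without MEC1 31 d replicate 3, 459 after cyclic loess and 182 with array weights. Complete early, with 341 genes down and 147 up, turned to 154 down and 212 up after quantile normalization, 170 and 202 after cyclic loess and 267 and 1130 with the covariate. Without MEC1 21 d replicate 3 it held 829 genes down and 338 up, more than late onset did in that fit (529 and 138), and the same order was found with array weights (682 and 426 against 480 and 152) and with the covariate (against 226 and 284). The order of the courses by frequency therefore depended on the arrays and the scaling. Centring the arrays moved the median difference of all tested clusters from 0.04 to -0.19.

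Most of a difference lay in the MEC1 mice. Among the 2225 genes with a difference of at least 1, the median share in the controls was 26.2%; 1723 genes had a share between 0 and 50%, 296 between 50 and 100% and 33 above 100%, while in 173 it was negative. The median absolute change between the days was 1.0 in MEC1 mice and 0.38 in controls. The share differed between courses, but the courses were defined on effects that contain the same control arrays. The course rule therefore partly sets these shares, and they describe the courses without testing them. Its median was 20.7% for genes that were larger late and down and 23.1% for those that were larger late and up. It was 29.7% for late onset from a flat start and down, 70.9% for genes reversed upward and 110% for genes whose early decrease was smaller late.

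**Figure D2:**
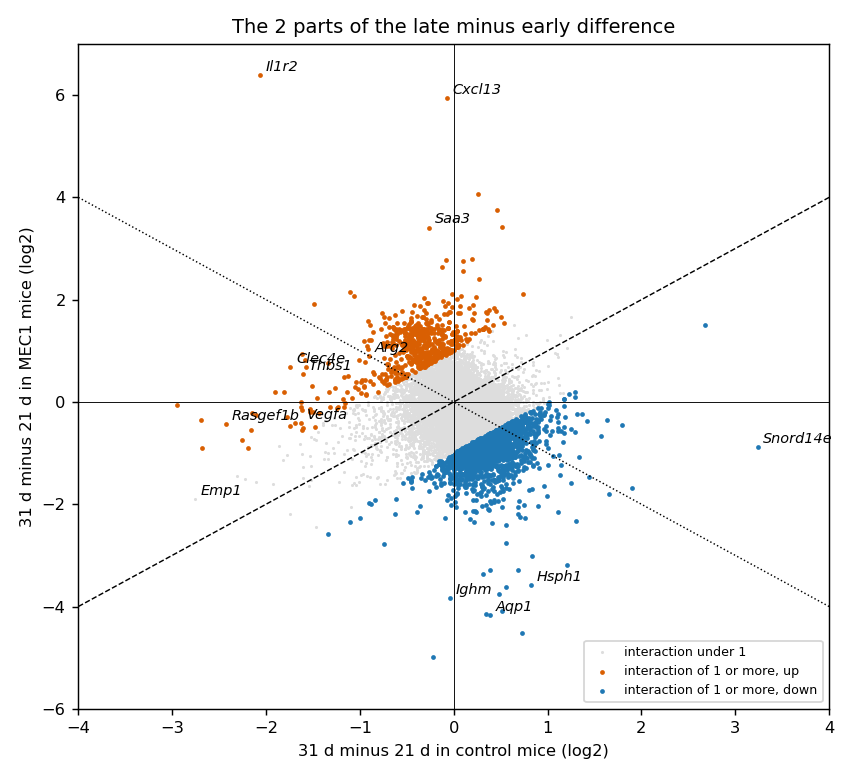
The 2 parts of the difference for each named gene: the change from 21 to 31 d in control mice (horizontal) and in MEC1 mice (vertical), both in log2, with genes whose difference reached 1 in colour. The dashed line marks equal change in both, and points beyond the dotted line toward the horizontal axis had more of their difference in the controls; Il1r2 and Cxcl13 lie far up, and Emp1, Vegfa, Rasgef1b and Snord14e lie toward the sides.

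The 250 bases before the start sites of Il1r2, Cxcl13 and Saa3 are shown because these inflammatory genes had some of the largest upward differences. The stretches are from RefSeq on GRCm38.p6, 5′ to 3′ on the gene's strand, at chr1:40085843-40086092 (plus strand) for Il1r2, chr7:46715677-46715926 (minus strand) for Saa3 and chr5:95956689-95956938 (plus strand) for Cxcl13. Capitals mark the 8-base pattern TTNNGNAA, a spelling of sites that C/EBP factors can bind, and the 6-base TATAAA.
Il1r2: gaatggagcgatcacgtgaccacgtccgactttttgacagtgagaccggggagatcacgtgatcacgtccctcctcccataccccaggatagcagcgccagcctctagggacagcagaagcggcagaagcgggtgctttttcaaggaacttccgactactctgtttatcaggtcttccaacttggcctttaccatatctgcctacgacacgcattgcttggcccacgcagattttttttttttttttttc
Saa3: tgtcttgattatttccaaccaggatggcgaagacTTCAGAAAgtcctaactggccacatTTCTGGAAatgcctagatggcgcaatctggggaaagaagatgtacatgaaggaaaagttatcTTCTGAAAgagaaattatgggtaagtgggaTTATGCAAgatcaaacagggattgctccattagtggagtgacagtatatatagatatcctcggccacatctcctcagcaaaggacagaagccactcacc
Cxcl13: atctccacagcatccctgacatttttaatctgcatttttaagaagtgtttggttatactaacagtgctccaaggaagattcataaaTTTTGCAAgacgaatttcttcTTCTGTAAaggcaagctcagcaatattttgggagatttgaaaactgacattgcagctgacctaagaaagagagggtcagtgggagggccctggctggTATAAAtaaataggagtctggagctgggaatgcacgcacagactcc
Both strands were searched for TTNNGNAA, for TGANTCA (the AP-1 pattern) and for TATAAA, and none of these patterns overlapped another in the 3 stretches. Saa3 held 4 matches of TTNNGNAA, Cxcl13 held 2 and 1 match of TATAAA, and these letters were not in the window of Il1r2. Of the 11218 named genes with a promoter entry, 31.4% held TTNNGNAA in the same 250 bases, 5.1% held TGANTCA and 8.6% held TATAAA.

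Il1r2 was a gene of late onset with a part in the controls. Its values were 7.76, 8.13 and 7.31 in control mice at 21 d and 7.22, 7.34 and 7.21 in MEC1 mice at 21 d. At 31 d they were 4.93, 6.06 and 6.03 in controls and 12.57, 14.57 and 13.80 in MEC1 mice. All MEC1 mice at 31 d lay above every other mouse, and all controls at 31 d lay below every mouse of 21 d. The early effect was -0.48 (adjusted p = 0.537) and the late effect 7.97 (adjusted p = 2.01e-05), a 251-fold increase. The difference was 8.45 (SE 0.646, 95% interval 7.03 to 9.87, adjusted p = 0.00203). It was made of a rise of 6.39 in MEC1 mice (adjusted p = 0.00101) and a change of -2.06 in controls (adjusted p = 0.208). The control part was not called and is 24.4% of the difference. With any 1 of the 12 arrays left out the call of the difference remained, but it was not made without moderation of the variances.

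**Figure D3:**
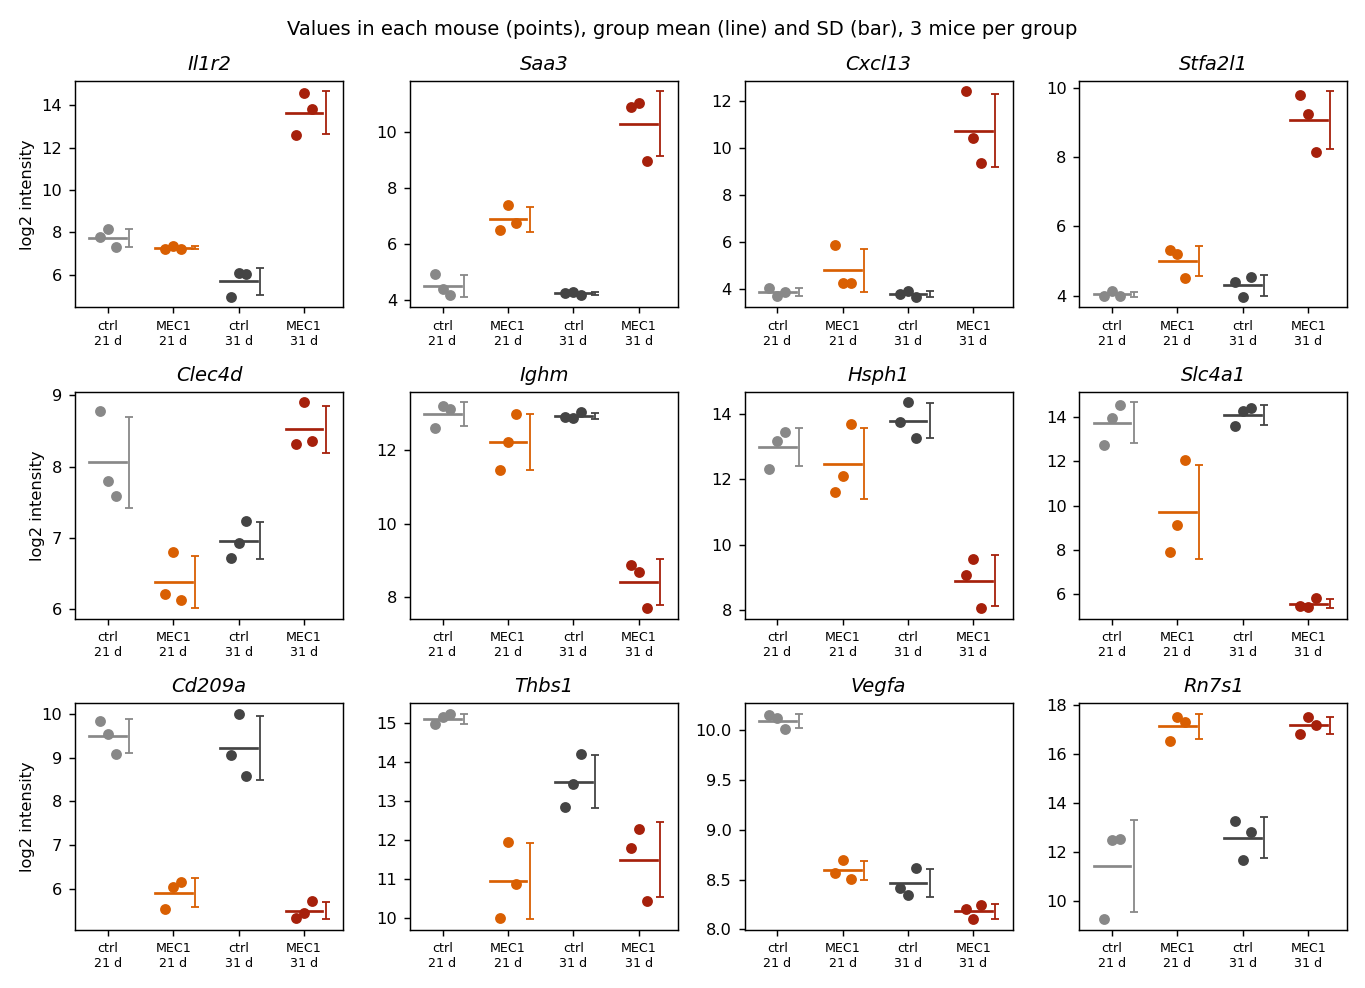
Log2 intensity in every mouse for 12 genes, with points for mice, a line for the group mean and a bar for the SD (3 mice per group); each panel has its own vertical range. Il1r2, Saa3, Cxcl13 and Stfa2l1 stand high in MEC1 mice at 31 d alone or mainly there, Cd209a is low in MEC1 mice on both days, Slc4a1 is intermediate and scattered at 21 d, and the Vegfa controls differ between the days.

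Cxcl13 and Saa3 had large differences that did not pass the test of the difference. Cxcl13, the chemokine that draws CXCR5-bearing B cells, lay at 3.65 to 4.04 in all 6 controls, at 5.87, 4.24 and 4.27 in MEC1 mice at 21 d and at 12.43, 10.43 and 9.37 in MEC1 mice at 31 d. The late group did not overlap the others, and MEC1 21 d replicate 1 was the highest early mouse. Its late effect was 6.95 (adjusted p = 0.000192) and its difference 6.02 (95% interval 4.0 to 8.04, adjusted p = 0.111), with 1.16% of the difference in controls. Saa3, a serum amyloid A made by macrophages, lay at 4.18 to 4.95 in the controls, at 6.49, 7.38 and 6.76 in MEC1 mice at 21 d and at 10.89, 11.01 and 8.97 at 31 d. The 3 levels did not overlap, and Saa3 was already up by 2.37 at 21 d (adjusted p = 0.0247) and by 6.04 at 31 d (adjusted p = 8.5e-05). The difference was 3.68 (95% interval 2.22 to 5.13, adjusted p = 0.177). The early call of Saa3 was lost without control 21 d replicate 2 or 3 (adjusted p = 0.0773 and 0.0903) and without MEC1 21 d replicate 1 or 2 (0.0615 and 0.0925), at effects of 2.11 to 2.56. The difference of Saa3 was called without MEC1 31 d replicate 3, at 4.34 (adjusted p = 0.00421). After quantile normalization the differences of Cxcl13 and Saa3 were called, at 6.34 and 3.91 (adjusted p = 0.0328 and 0.0201). Apart from array weights and the fits that left out a single array, 2 of 13 alternatives called that of Cxcl13 and 3 of 13 that of Saa3.

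The stefins, small inhibitors of cysteine cathepsins encoded side by side on chromosome 16, were higher late as a group. Stfa2l1 lay at 3.97 to 4.54 in the controls, at 5.31, 5.20 and 4.52 in MEC1 mice at 21 d and at 9.79, 9.25 and 8.16 at 31 d. Its late effect was 4.77 (adjusted p = 8.5e-05), its early effect 0.97 (adjusted p = 0.143) and its difference 3.80 (adjusted p = 0.0835). Cstdc4 had group means of 4.217, 5.09, 4.313 and 7.837 for control 21 d, MEC1 21 d, control 31 d and MEC1 31 d, with a late effect of 3.52 (adjusted p = 8.86e-05) and a difference of 2.65. Between the days in MEC1 mice, Stfa2l1 rose by 4.06 (adjusted p = 0.00475) and Cstdc4 by 2.75 (adjusted p = 0.00716), and both calls held in all 12 fits that left out an array. Stfa1 (late effect 3.57), Stfa3 (3.21), Cstdc6 (3.15) and Stfa2 (3.04) rose at 31 d with differences of 2.86, 2.60, 2.77 and 2.47, and their control shares lay between -7.69% and 4.81%. The difference was called without MEC1 31 d replicate 3 for Stfa2l1 (4.25) and Cstdc6 (3.27), each at an adjusted p of 0.00421. These genes are close copies of each other, so their probe sets may share signal and they are not independent. Stfa2 is outside the rule for named genes and was added for its sequence.

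The 60 bases before the start of 5 stefins are shown because these late genes carry a run of letters in common. They are from RefSeq on GRCm38.p6, chromosome 16, at chr16:36156751-36156810 (plus strand) for Stfa2l1, chr16:36184152-36184211 (plus strand) for Cstdc4, chr16:36277088-36277147 (plus strand) for Stfa1, chr16:36408364-36408423 (minus strand) for Stfa2 and chr16:36455393-36455452 (minus strand) for Stfa3. Capitals mark the shared run.
Stfa2l1: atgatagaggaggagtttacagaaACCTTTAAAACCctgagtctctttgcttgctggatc
Cstdc4: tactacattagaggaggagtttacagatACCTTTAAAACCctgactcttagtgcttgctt
Stfa1: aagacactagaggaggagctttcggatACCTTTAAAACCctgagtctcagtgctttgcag
Stfa2: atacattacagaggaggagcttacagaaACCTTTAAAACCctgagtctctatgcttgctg
Stfa3: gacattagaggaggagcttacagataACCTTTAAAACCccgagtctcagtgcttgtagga
The 12-base run ACCTTTAAAACC stood in the last 100 bases before the start of 7 stefin genes of this cluster and in no other of the 11218 promoters searched, so 0.062% of them held it. The run was found by comparing these promoters, so it describes related genes and is no site.

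Other named genes of late onset were higher late too. Chil4, a chitinase-like protein, lay at 4.84 to 5.87 in the controls, at 4.96 to 5.24 in MEC1 mice at 21 d and at 7.75, 7.67 and 7.09 at 31 d. Its late effect was 1.83 (adjusted p = 0.000788) and its difference 2.13 (adjusted p = 0.165). Ccl8, a monocyte chemokine, had a late effect of 1.68 (adjusted p = 0.000199) from a low level, with 4.65, 5.0 and 4.63 in MEC1 mice at 31 d against 2.99 to 3.68 in every other mouse. Clusters were tested if above the array median on 3 or more arrays, and the lowest array median was 3.8. Ccl8 was therefore tested only because it was high in MEC1 mice at 31 d, so its separation there is no further support. Il1b, the ligand that Il1r2 captures, lay at 8.90, 8.83 and 8.57 in MEC1 mice at 31 d and at 6.33 to 7.65 in the rest; its late effect was 2.03 (adjusted p = 0.000246) and its difference 1.71, of which 22.8% lay in controls. C1qa, a chain of complement C1q, and Mertk, a receptor for apoptotic cells, rose at 31 d by 1.49 and 1.70 (adjusted p = 0.00112 and 0.00024) from effects of 0.09 and 0.38 at 21 d. Both were dim, with means at 31 d of 4.23 and 3.483 in controls and 5.72 and 5.183 in MEC1 mice. With the hybridisation controls as a covariate their late effects were 2.56 and 0.66 (adjusted p = 0.249 and 0.639). The late calls of Chil4, Ccl8 and Il1b were lost in that fit too (adjusted p = 0.313, 0.252 and 0.232). Dpep2, a dipeptidase that acts on leukotriene D4, rose at 31 d by 1.64 (adjusted p = 0.000404) with a difference of 2.00 (adjusted p = 0.0835).

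Of 348 genes that were larger late and upward, only 5 encode proteins, namely Saa3, Vcan, Cfb, Ccr7 and P2ry13; the last 2 are named here because of that small number, after their values were seen. Vcan, the matrix proteoglycan versican, lay at 5.66 to 6.88 in the controls, at 7.67, 8.0 and 8.08 in MEC1 mice at 21 d and at 10.22, 9.90 and 9.42 at 31 d. It was up by 1.62 early (adjusted p = 0.0173) and by 3.82 late (adjusted p = 8.5e-05), with a difference of 2.20 (adjusted p = 0.177). Its early call was lost without control 21 d replicate 2 (1.42, adjusted p = 0.0623) or 3 (1.53, 0.0684) and without MEC1 21 d replicate 2 (1.58, 0.0669). Cfb, the alternative complement factor B, spread over 9.55, 8.23 and 6.95 in MEC1 mice at 31 d, with MEC1 31 d replicate 3 the lowest, and rose by 3.08 at 31 d (adjusted p = 0.00128). The long non-coding RNA AW112010, which macrophages induce in inflammation, lay at 5.23 to 6.41 in the controls, at 6.25, 7.16 and 7.41 in MEC1 mice at 21 d and at 10.96, 11.15 and 8.98 at 31 d, with a late effect of 4.15 (adjusted p = 0.000526) and a difference of 2.91 (adjusted p = 0.31).

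Acute-phase proteins and alarmins did not all rise. Of 21 members tested, 3 were up and 1 down at 21 d, beside 2.56% up and 3.27% down over all named genes. At 31 d 11 were up and 2 down, beside 21.5% and 29.0%. The median effect of the list was 0.53 early and 0.95 late, beside 0.00 and -0.10 over all named genes. Its median difference was 0.29 and became 0.54 without MEC1 31 d replicate 3 and 0.06 with arrays centred on their median. Of 14 interleukin 1 family genes 5 were up and 1 down at 31 d, beside 21.5% up and 29.0% down over all named genes.

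Ighm and the inducible chaperones had large late decreases without an early call. Ighm, the constant region of the mu heavy chain, lay at 12.62, 13.21 and 13.13 in controls at 21 d, 11.46, 12.24 and 13.00 in MEC1 mice at 21 d, 12.92, 12.87 and 13.04 in controls at 31 d and 8.86, 8.67 and 7.69 in MEC1 mice at 31 d. The early groups overlapped and the late ones did not. The late effect was -4.54 (adjusted p = 0.000126), the difference -3.78 (95% interval -4.98 to -2.59, adjusted p = 0.101) and the change between the days in MEC1 mice -3.83 (adjusted p = 0.00716), a call made in all 12 fits that left out an array. The difference was called without MEC1 21 d replicate 1, at -4.17 (adjusted p = 0.0456). The controls held -1.15% of it.

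Hsph1, a co-chaperone of the heat shock response, lay at 12.33, 13.17 and 13.45 in controls at 21 d, 11.63, 12.11 and 13.70 in MEC1 mice at 21 d, 13.76, 14.36 and 13.28 in controls at 31 d and 9.07, 9.57 and 8.05 in MEC1 mice at 31 d. Its late effect was -4.90 (adjusted p = 0.000375), and its difference of -4.40 (adjusted p = 0.177) lay to 18.6% in the controls. Hspa1a, the inducible Hsp70, had a late effect of -5.06 (adjusted p = 0.00145) and a difference of -4.39, and Stip1, which links Hsp70 to Hsp90, one of -2.80 (adjusted p = 0.00853). Of 9 heat shock genes tested 1 was up and 6 were down at 31 d and none was called at 21 d; the late calls numbered 3 after quantile normalization and 4 without MEC1 31 d replicate 3. Of 14 genes of the unfolded protein response 9 were down at 31 d and 1 at 21 d, with medians of -1.07 and 0.06; the late calls numbered 6 after quantile normalization, 5 after cyclic loess and 4 without MEC1 31 d replicate 3. Over all named genes 21.5% were up and 29.0% down at 31 d. Bright genes as a whole leaned down: late medians at mean levels of 8 to 10, 10 to 12 and 12 to 14 were -0.95, -0.93 and -0.85. Above 14 the late median was -0.5. Hspa5 (BiP) and Calr, chaperones of the endoplasmic reticulum, fell by 1.62 and 1.52 at 31 d (adjusted p = 0.00364 and 0.0119) after effects of 0.03 and 0.17. Alg3, a mannosyltransferase of N-glycan assembly, fell by 2.08 (adjusted p = 0.00103) after 0.32, and Cd7 by 1.79 (adjusted p = 0.000736) after 0.42.

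Red cell genes were among the largest differences downward. Rhag, a Rh-associated membrane protein, had the difference furthest below 0, at -5.25. Slc4a1, the band 3 anion exchanger, lay at 12.75, 13.98 and 14.53 in controls at 21 d, 7.92, 9.14 and 12.06 in MEC1 mice at 21 d, 13.58, 14.28 and 14.41 in controls at 31 d and 5.46, 5.42 and 5.80 in MEC1 mice at 31 d. The MEC1 mice were below the controls on both days, and MEC1 21 d replicate 3 was the early mouse nearest the controls. Slc4a1 fell by 4.05 early (adjusted p = 0.0291) and by 8.53 late (adjusted p = 0.000213), with a difference of -4.48 (95% interval -7.09 to -1.88, adjusted p = 0.325) that lay to 7.51% in controls. Its early call was lost without MEC1 21 d replicate 1 (-3.15, adjusted p = 0.0883) or 2 (-3.76, 0.101) and without control 21 d replicate 2 (-3.93, 0.0858) or 3 (-3.66, 0.103). Whether fewer erythroid cells or less RNA per cell gave these values cannot be told apart in bulk RNA.

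All 19 erythroid genes tested were down at 31 d and 6 at 21 d, with medians of -4.77 and -2.72, and all 19 differences were negative (median -2.11). Without MEC1 21 d replicate 3 all 19 were called at 21 d, the early median became -3.80 and the median difference -1.18. By size 16 of the 19 were larger late, beside 1.23% of all named genes that were larger late and down. Among all named genes, 3.27% were down at 21 d and 29.0% at 31 d. Of 10 heme synthesis genes, 1 was down at 21 d and all 10 at 31 d, and without MEC1 21 d replicate 3 all 10 were down at 21 d as well. Alas2, which starts heme synthesis in erythroid cells, fell by 4.74 at 31 d (adjusted p = 0.000548), and Car2, carbonic anhydrase of red cells and osteoclasts, by 8.10 (adjusted p = 0.00049).

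Cell division genes were lower late, beside 3.27% of all named genes called down at 21 d and 29.0% at 31 d. Of 21 mitosis genes none was called at 21 d and all 21 were down at 31 d, with medians of -0.42 and -1.94, and 20 of them were of late onset by size. Of 26 DNA replication genes 24 were down at 31 d and none at 21 d, with medians of -1.93 and -0.66. By size 14 of the 26 were of late onset, 3 were larger late and the rest had neither course. Of all named genes, 3.75% were of late onset and down from a flat start and 2.29% from a partly present one. Another 1.23% were larger late and down. Bub1b, a spindle checkpoint kinase, lay at 9.13 to 10.16 in controls and early MEC1 mice and at 8.79, 8.4 and 7.0 in late MEC1 mice; its late effect was -1.94 (adjusted p = 0.00558). Cenpe, a kinetochore motor, and Pola1, the catalytic subunit of DNA polymerase alpha, fell by 1.94 and 2.19 at 31 d (adjusted p = 0.00161 and 0.000829). Without MEC1 31 d replicate 3, 14 of the 21 mitosis genes and 22 of the 26 replication genes were called at 31 d, and the median differences were -1.13 and -1.05 in place of -1.59 and -1.30. After cyclic loess they were -0.95 and -0.80, with 14 and 19 late calls.

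Genes of stem and progenitor cells were lower late. Of 15 tested, 10 were down at 31 d and none at 21 d, beside 29.0% and 3.27% of all named genes. All 15 differences were negative (median -0.55, beside -0.07 over all named genes). Cd34, a marker of progenitors, lay at 7.57 to 8.28 in controls at 21 d, 7.56 to 8.05 in MEC1 mice at 21 d, 8.21 to 9.16 in controls at 31 d and 6.29 to 7.0 in MEC1 mice at 31 d. Its late effect was -1.98 (adjusted p = 0.00114), and 34.6% of its difference lay in controls. For Flt3, a receptor of early progenitors and dendritic cells, the late effect was -2.20 (adjusted p = 0.000295) and the share in controls 51.2%, with controls that were 0.70 higher at 31 d than at 21 d. Nuclear genes of the respiratory chain also had negative differences in all 24 tested (median -0.80), and 15 were down at 31 d and none at 21 d. The late calls numbered 4 without MEC1 31 d replicate 3 and 5 after quantile normalization or cyclic loess. Median differences of named genes at mean levels of 6 to 8, 8 to 10 and 10 to 12 were -0.33, -0.56 and -0.62. At 12 to 14 and above 14 they were -0.68 and -0.47.

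**Figure D4:**
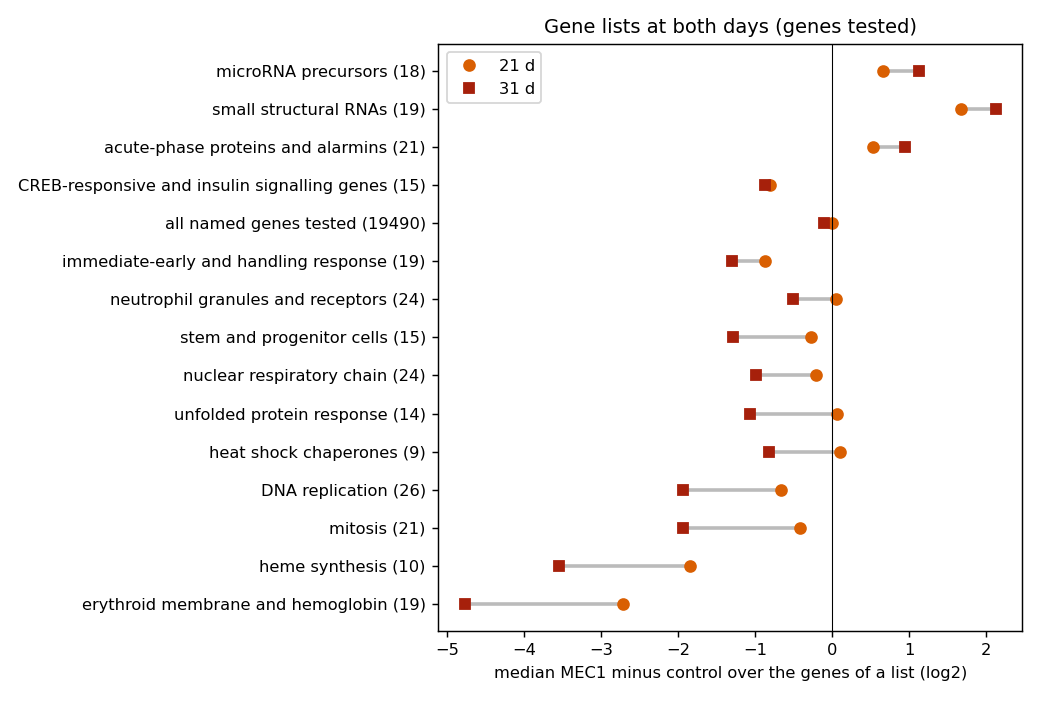
Median MEC1 minus control effect over the tested genes of 14 lists and over all named genes, at 21 d (circles) and 31 d (squares), in log2, with the number of genes in parentheses. Erythroid and heme lists were far below 0 on both days, mitosis and DNA replication mainly at 31 d, and the CREB-responsive list lay at nearly the same place on both days.

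A different set of genes was complete at 21 d, and most of its protein-coding members went down. Of the 341 genes complete early and down 295 encode proteins, against 19 of the 147 complete early and up. Cd209a, a C-type lectin of monocyte-derived and dendritic cells, lay at 9.85, 9.54 and 9.08 in controls at 21 d, 5.54, 6.05 and 6.15 in MEC1 mice at 21 d, 9.07, 10.01 and 8.57 in controls at 31 d and 5.33, 5.44 and 5.71 in MEC1 mice at 31 d. The MEC1 mice of both days were well below every control. The effects were -3.58 (adjusted p = 0.00112) and -3.72 (adjusted p = 0.000166), and the difference was -0.15 with a 95% interval of -1.2 to 0.90. Cyp27a1, the mitochondrial sterol 27-hydroxylase, had effects of -3.49 and -3.67 (difference -0.17, interval -1.27 to 0.92), and Trf, transferrin, effects of -3.26 and -3.85 (interval -1.53 to 0.35); each was called on both days. Clec7a, the beta-glucan receptor Dectin-1, fell by 3.01 and 3.66, and Cx3cr1, the fractalkine receptor of non-classical monocytes, by 1.56 and 2.27; their intervals were -1.85 to 0.55 and -1.48 to 0.06. The intervals of all 5 of these genes leave room for a further late decrease of more than 1.

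For some early decreases the difference ran upward. Apoe, the lipid carrier, fell by 2.72 at 21 d (adjusted p = 0.000411) and by 1.82 at 31 d (adjusted p = 0.000454), a difference of 0.90 (95% interval 0.24 to 1.56, adjusted p = 0.333). Irs2, an adaptor of the insulin receptor, lay at 12.48, 12.69 and 12.71 in controls at 21 d, 9.02, 9.48 and 9.61 in MEC1 mice at 21 d, 10.41, 10.84 and 11.28 in controls at 31 d and 8.54, 8.41 and 8.08 in MEC1 mice at 31 d. MEC1 mice were below controls on each day, and the controls of 31 d were below those of 21 d. The effects were -3.26 and -2.50 (adjusted p = 0.000236 and 0.000199), while the controls changed by -1.78 between the days, which was not called. Sik1, a kinase induced by CREB, was down on both days, with effects of -3.06 and -2.72. Of 15 CREB-responsive and insulin signalling genes 6 were down at 21 d and 8 at 31 d, with medians of -0.80 and -0.87, and the median change in the controls between the days was -0.66, beside 0.03 over all named genes. Of 19 immediate-early genes, which cells also switch on during handling, 3 were down at 21 d and 13 at 31 d, with medians of -0.87 and -1.30. Beside these 2 lists, 3.27% of all named genes were down at 21 d and 29.0% at 31 d. Abca9, a lipid transporter, was larger late instead: it lay at 9.86 to 10.54 in the controls, at 6.41, 6.81 and 7.11 in MEC1 mice at 21 d and at 4.84, 5.32 and 5.32 at 31 d, with effects of -3.35 and -5.07 (adjusted p = 0.000185 and 4.63e-06) and a difference of -1.73 (adjusted p = 0.182).

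Few coding genes were complete early and up. Il1f9, which encodes interleukin 36 gamma, lay at 7.04, 7.27 and 6.59 in controls at 21 d, 9.26, 8.55 and 9.23 in MEC1 mice at 21 d, 7.6, 6.53 and 8.02 in controls at 31 d and 9.62, 10.81 and 8.87 in MEC1 mice at 31 d. The MEC1 mice were above the controls on both days. Its early effect of 2.05 (adjusted p = 0.043) was called in 3 of the 12 fits that left out an array, at adjusted p-values up to 0.138, and its late effect was 2.38 (adjusted p = 0.00415). U2af1, a splicing factor subunit, rose by 1.91 and 1.93 (adjusted p = 0.0153 and 0.0019; difference 0.02, interval -1.01 to 1.06). Its early call was lost without control 21 d replicate 3 (1.91, adjusted p = 0.0561), MEC1 21 d replicate 1 (1.98, 0.0518) or MEC1 21 d replicate 2 (1.80, 0.0647).

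Among the 86 reversed genes the clearest was Clec4d, a C-type lectin receptor for mycobacterial glycolipid. Its values were 8.78, 7.80 and 7.59 in controls at 21 d, 6.21, 6.80 and 6.12 in MEC1 mice at 21 d, 6.72, 6.92 and 7.24 in controls at 31 d and 8.31, 8.90 and 8.36 in MEC1 mice at 31 d. MEC1 mice lay below their controls at 21 d and above them at 31 d, with no overlap on either day. It fell by 1.68 at 21 d (adjusted p = 0.021) and rose by 1.56 at 31 d (adjusted p = 0.004), and the difference of 3.24 (95% interval 2.26 to 4.23, adjusted p = 0.0835) lay to 33.8% in controls. That difference was called after quantile normalization (3.54, adjusted p = 0.0306), with array weights (2.79, 0.00502) and with 1 cluster per gene in the fit (3.24, 0.0353). Apart from array weights and the fits that left out a single array, 3 of 13 alternatives called it. None of the 12 fits that left out an array did. The early call was lost without MEC1 21 d replicate 1 (-1.60, adjusted p = 0.0791), after quantile normalization (-1.32, 0.0513) and after cyclic loess (-1.37, 0.058). Cd33, an inhibitory sialic acid receptor, had effects of -1.22 (adjusted p = 0.057) and 1.27 (adjusted p = 0.0109), with a difference of 2.49 (interval 1.49 to 3.49) and 36.7% of it in controls.

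In other reversed genes the early effect was smaller than the late one or the call depended on the arrays. Chil3, the chitinase-like protein Ym1, lay at 8.43 to 10.52 in the controls, at 9.00, 9.28 and 8.81 in MEC1 mice at 21 d and at 12.91, 13.37 and 12.07 at 31 d, with effects of -0.54 and 2.76 (adjusted p = 0.498 and 0.00176). Chil3 and Chil4 are close copies. Pla2g7, the platelet-activating factor acetylhydrolase, had effects of -1.05 (adjusted p = 0.101) and 0.95 (adjusted p = 0.0422), and the late call was made in 4 of the 12 fits that left out an array (adjusted p up to 0.142). Mlkl, the effector of necroptosis, turned the other way, with 6.37, 6.53 and 6.78 in controls and 7.10, 7.31 and 7.25 in MEC1 mice at 21 d, and 6.83, 6.63 and 7.14 in controls and 6.39, 5.99 and 6.06 in MEC1 mice at 31 d. The groups did not overlap on either day, and the effects were 0.66 (adjusted p = 0.064) and -0.72 (adjusted p = 0.0102); the late effect was -0.31 (adjusted p = 0.234) after quantile normalization and -0.16 (adjusted p = 0.521) after cyclic loess.

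A part of the differences was made in the control mice. Vegfa, the vascular endothelial growth factor, lay at 10.15, 10.12 and 10.01 in controls at 21 d, 8.57, 8.70 and 8.51 in MEC1 mice at 21 d, 8.42, 8.35 and 8.62 in controls at 31 d and 8.20, 8.10 and 8.25 in MEC1 mice at 31 d. The controls of 21 d stood apart from the other 9 mice. Vegfa fell by 1.5 with MEC1 at 21 d (adjusted p = 0.000815), and the late effect was -0.28 (adjusted p = 0.1). The controls fell by 1.63 between the days (adjusted p = 0.00318), so 134% of the difference of 1.22 lay in them. Emp1, an epithelial membrane protein, was the other named gene that changed in controls, from 11.52, 11.92 and 11.43 at 21 d to 8.59, 9.02 and 8.97 at 31 d, a fall of 2.76 that was called in 4 of the 12 fits that left out an array (adjusted p up to 0.149). The early and late effects of Emp1 were -2.27 and -1.40 (adjusted p = 0.00547 and 0.00561). Emp1 also changed by -1.90 between the days in MEC1 mice (adjusted p = 0.0407), so its fall was found in both groups. That call in MEC1 mice was lost in all 12 fits that left out an array (adjusted p = 0.0535 to 0.0975). The difference of Emp1 was 0.86 and was not called (adjusted p = 0.412).

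Other early decreases were smaller late with a large part in the controls by size, and none of these control changes was called. The rule for this course favours such genes, because the control arrays of 21 d enter the early effect. Thbs1, the matrix glycoprotein thrombospondin 1, lay at 14.96, 15.14 and 15.22 in controls at 21 d, 9.99, 11.95 and 10.88 in MEC1 mice at 21 d, 12.85, 13.43 and 14.20 in controls at 31 d and 11.78, 12.28 and 10.42 in MEC1 mice at 31 d. MEC1 mice were below the controls of their day throughout, and the controls of 31 d were lower than those of 21 d. It fell by 4.17 at 21 d (adjusted p = 0.00487) and by 2.00 at 31 d (adjusted p = 0.0153), and 74.5% of the difference of 2.17 (adjusted p = 0.345) lay in controls. The late call was lost without control 31 d replicate 3 (-1.65, adjusted p = 0.0588) or MEC1 31 d replicate 3 (-1.46, 0.0579). For Rasgef1b, a Ras exchange factor, Cd86, the costimulatory ligand of CD28, and Errfi1, an inhibitor of the EGF receptor, the early effects were -2.40, -2.31 and -1.23 (adjusted p = 0.00839, 0.00887 and 0.00778), the late ones -0.40, -0.80 and 0.00 and the control shares 121%, 149% and 107%. Ms4a8a, named after its values were seen, differed from them, with effects of -1.79 and -0.68 and 18.0% of its difference in controls.

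Controls also contributed to late rises by size, though no control change of a named gene other than Vegfa and Emp1 was called. Clec4e, the lectin Mincle, lay at 9.98, 9.84 and 10.24 in controls at 21 d, 9.54, 10.38 and 10.51 in MEC1 mice at 21 d, 8.09, 8.65 and 8.09 in controls at 31 d and 10.72, 11.24 and 10.52 in MEC1 mice at 31 d. The late controls were the low group and the late MEC1 mice exceeded the early ones by 0.68. Its late effect was 2.55 (adjusted p = 0.000368), and 71.8% of the difference of 2.43 lay in controls. Arg2, the mitochondrial arginase, had a late effect of 1.44 (adjusted p = 0.000489) and a difference of 1.79 (adjusted p = 0.0835) shared about equally, with 50.2% in controls. Snord14e, a small nucleolar RNA that lies within an intron of the chaperone gene Hspa8, showed the largest rise in controls among these, from 12.85, 12.21 and 13.11 at 21 d to 16.59, 15.88 and 15.41 at 31 d. In MEC1 mice it lay at 12.08, 12.56 and 14.83 early and 11.64, 13.20 and 11.99 late, so the late effect was -3.68 (adjusted p = 0.0022) and 78.6% of the difference of -4.12 lay in controls.

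Small nuclear RNA genes filled 1 of the upward courses. Of the 348 genes that were larger late and up 300 (86.2%) were small nuclear RNA genes, and 703 of the 718 such genes tested carry predicted Gm numbers. At 21 d 221 of the 718 were up (beside 2.56% of all named genes) and none down. At 31 d 584 of them were up (beside 21.5%) and 5 down. Their median per mouse was 5.26, 4.86 and 4.98 in controls at 21 d, 6.26, 6.19 and 5.56 in MEC1 mice at 21 d, 4.64, 4.97 and 4.77 in controls at 31 d and 6.33, 6.46 and 7.12 in MEC1 mice at 31 d. MEC1 mice were above the controls on both days, with MEC1 21 d replicate 3 the lowest and MEC1 31 d replicate 3 the highest of them, the same order as in the hybridisation controls (11.8 and 13.18). These genes are near-identical copies of spliceosomal RNAs, and 92 of them shared their values with another cluster, so they are not separate measurements.

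**Figure D5:**
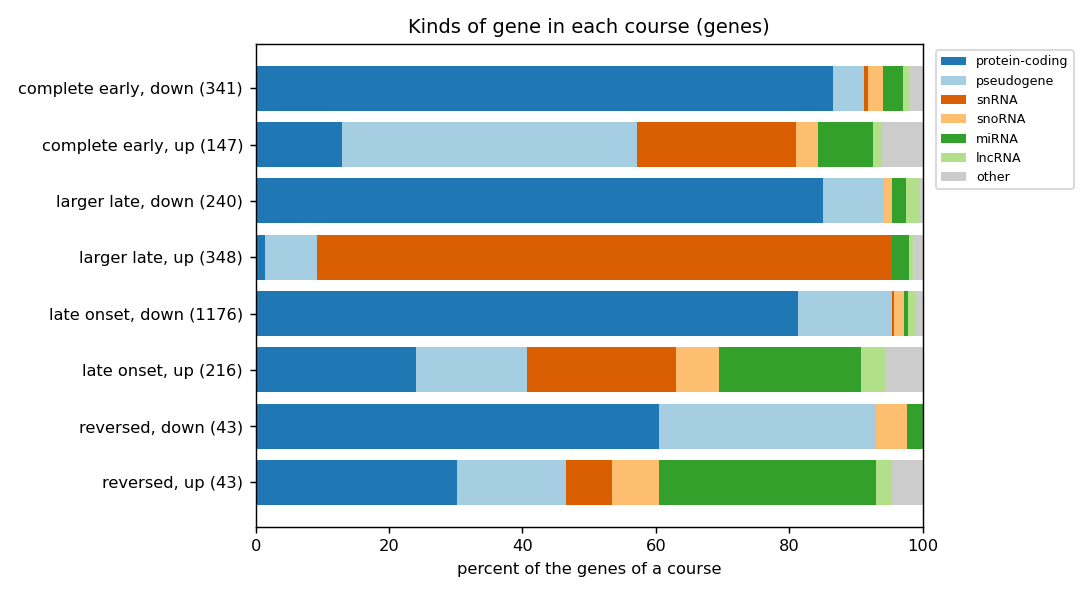
Kinds of gene in each course and direction, in percent of the genes of that course, with their number in parentheses. Protein-coding genes fill 204 of the 240 genes that were larger late and down, small nuclear RNA genes fill 300 of the 348 that were larger late and up, and pseudogenes and microRNA genes are frequent in the other upward courses.

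Among structural RNAs with names, 9 of 19 were up at 21 d and 13 were up and 1 down at 31 d. The shares over all named genes were 2.56% up at 21 d, and 21.5% up and 29.0% down at 31 d. Rn7s1, the RNA of the signal recognition particle, lay at 9.24, 12.49 and 12.55 in controls at 21 d, 16.55, 17.54 and 17.34 in MEC1 mice at 21 d, 13.28, 11.68 and 12.82 in controls at 31 d and 16.83, 17.52 and 17.22 in MEC1 mice at 31 d. Both MEC1 groups were high, and control 21 d replicate 1 was the lowest. The effects were 5.72 and 4.6 (adjusted p = 0.0051 and 0.00163), and the difference of -1.12 (95% interval -3.50 to 1.26) lay in controls to 104%. Rny1, a Y RNA that binds the Ro protein, rose by 2.68 and 3.06 (adjusted p = 0.00751 and 0.00056). Rny3 had effects of 3.30 and 2.13 (adjusted p = 0.0411 and 0.0445), called in 3 and 4 of the 12 fits that left out an array, with a control at 4.51 far below the other controls.

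The microRNA genes are shown by the mature strand they give rise to, because a pair of them share a seed and sit next to each other. The arrays measured precursor clusters, not mature arms. The mature sequences are from RefSeq on GRCm38.p6, all on the plus strand, at chr3:69009775-69009796, chr3:69009918-69009939, chr2:131288103-131288125 and chr11:87756903-87756925 in the order given, and capitals mark the seed, bases 2 to 8.
miR-15b-5p: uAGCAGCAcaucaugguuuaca
miR-16-5p: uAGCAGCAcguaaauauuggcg
miR-103-3p: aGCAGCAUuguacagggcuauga
miR-142a-3p: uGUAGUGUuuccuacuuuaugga
miR-15b and miR-16 share the seed AGCAGCA. Loss of another locus, which also encodes miR-16 but not miR-15b, is a hallmark of chronic lymphocytic leukemia. Mir16-2 lay at 5.62, 6.58 and 5.97 in controls at 21 d, 10.82, 9.61 and 8.52 in MEC1 mice at 21 d, 6.02, 6.16 and 5.59 in controls at 31 d and 8.29, 9.78 and 10.23 in MEC1 mice at 31 d. The MEC1 mice of both days were above every control, with effects of 3.59 and 3.51 (adjusted p = 0.0112 and 0.00163) and a difference of -0.08 (95% interval -1.90 to 1.74). Mir15b had effects of 2.85 and 1.78 (adjusted p = 0.0396 and 0.0479), called in 4 and 5 of the 12 fits that left out an array. Mir103-2 and Mir142 were larger late by size, with effects of 2.68 and 4.21 and of 1.89 and 3.28; their early calls (adjusted p = 0.0445 and 0.0411) were made in 4 and 6 of those 12 fits, and their late calls (0.00113 and 0.000655) in all 12. Of 18 microRNA precursors tested 4 were up and 1 down at 21 d, and 10 were up and 2 down at 31 d. Of all named genes 2.56% were up and 3.27% down at 21 d, and 21.5% were up and 29.0% down at 31 d.

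B lineage genes were followed because the mice carry human B cells and their own lymphoid cells are lacking. Of 12 tested 2 were up at 21 d, and 6 were up and 1, Ighm, was down at 31 d. All named genes had 2.56% up at 21 d, and 21.5% up and 29.0% down at 31 d. Pax5, the B lineage transcription factor, lay at 4.53 to 4.77 in the controls, at 6.16, 6.12 and 5.91 in MEC1 mice at 21 d and at 6.72, 6.65 and 7.21 at 31 d, with no overlap between the 3 levels. The effects were 1.34 and 2.23 (adjusted p = 0.00378 and 8.5e-05) and the difference 0.89 (95% interval 0.38 to 1.40, adjusted p = 0.321). The mean marker level of the list was 4.994, 5.311, 4.99 and 5.189 in control 21 d, MEC1 21 d, control 31 d and MEC1 31 d. Its part in the results was not tested. Neutrophil genes (24 tested) had 1 up and 8 down at 31 d and none called at 21 d, with a median difference of -0.49; the 8 down are near the 29.0% of all named genes called down. Of 28 type I interferon genes 1 was up and 7 were down at 31 d and none was called at 21 d, with a median difference of -0.12 beside -0.07 over all named genes. The 7 down are near the 29.0% of all named genes called down, and the 1 up is below the 21.5% called up.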

How the data were processed

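The deposited values were log2 intensities that the authors had summarised per transcript cluster; per the submitters' processing notes this was done with RMA in Affymetrix Expression Console, whose version is not stated. The values were used as deposited. Testing was limited to clusters that exceeded the median of the array on 3 or more arrays. The 4 groups each had a mean in one linear model (R 4.3.3, limma 3.58.1), with empirical Bayes moderation and Benjamini-Hochberg adjustment over 37240 clusters. The code was checked on simulated arrays with independent noise of equal spread in all groups. Those arrays lacked the array-wide shifts and unequal spreads of the real ones, so the check cannot show how the calls behave under them. A call is an adjusted p under 0.05. For arrays, their number (3 per group) limits the precision.

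The members and gene lists were chosen with earlier results of these data known. Named genes were the largest or most significant differences, up to 5 genes per course and direction, leading list members and a set of named markers; others are marked in the text. Deviations of same-numbered replicates had no common sign (18 pairs, correlations -0.36 to 0.42, 4 of them over 0.1), so the replicate block was an alternative. The highest, 0.36 and 0.42, joined control and MEC1 arrays of 21 d for replicates 1 and 3, while replicate 2 had -0.17. Other alternatives changed the filter, scaling, weights, moderation, clusters per gene, minimum fold, hybridisation-control covariate and the arrays included. Promoter and microRNA sequences were taken from RefSeq tables on GRCm38.p6.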

Additional observations from a re-analysis of the deposited data

Results flagged for a closer look

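Il1r2 was singled out because its effect of MEC1 differed between the days by a test of the difference itself (limma, adjusted p = 0.00203). Clec4d was singled out because its effects ran in opposite directions on the 2 days, -1.68 at 21 d and 1.56 at 31 d, with every MEC1 mouse below its controls early and above them late. The test of that difference did not pass for Clec4d (limma, adjusted p = 0.0835). It did pass after quantile normalization (0.0306), with array weights (0.00502) and with 1 cluster per gene in the fit (0.0353). Apart from array weights and the fits that left out a single array, 3 of 13 alternatives called it. None of the 12 fits that left out an array called it (adjusted p = 0.0964 to 0.268).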

How the results depend on the processing

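Clusters called at 21 d (1615) numbered 1066 after quantile normalization, 15923 with array weights, 676 without moderation, 65 with a 1.5-fold minimum, 831 with the replicate block, 4 with the covariate, 454 from the 6 arrays alone and 330 to 2883 with 1 array left out (without MEC1 21 d replicate 1 and 3). Those at 31 d (16297) numbered 30065 without a filter, 10483 at the 70th percentile, 10646 after quantile normalization, 10330 after cyclic loess, 10636 with 1 cluster per gene, 10639 with their mean, 2910 with the minimum, 7 with the covariate, 7187 after quantile normalization without MEC1 31 d replicate 3 and 10647 to 16847 with 1 array left out. For the difference (1), the numbers in that style were 17 (quantile), 8 (loess), 1573 (weights), 0 (no moderation), 13 (1 cluster per gene), 13 (mean), 4 (covariate), 16 (quantile without MEC1 31 d replicate 3), 1 (replicate block) and 1 to 5 (1 array left out): 5 when MEC1 21 d replicate 1 was dropped, 4 for MEC1 31 d replicate 3, 3 for MEC1 31 d replicate 2 and 2 for control 31 d replicate 1. For controls between days (3) they were 10, 23, 266 and 1 under quantile, loess, weights and no moderation, 0 with the minimum, 15 with the covariate, 15 with quantile without MEC1 31 d replicate 3, 0 from 6 arrays and 1 to 12. For MEC1 mice between days (84) they were 191 (quantile), 20 (centred), 7735 (weights), 25 (no moderation), 5 (minimum), 15 (replicate block), 10 (covariate), 1 (6 arrays) and 7 to 70, the lowest without MEC1 21 d replicate 3. Genes given a course by test (622) numbered 2581 by size alone, 413 (quantile), 5059 (weights), 349 (no moderation), 37 (minimum), 356 (replicate block), 4 (covariate) and 152 to 1455. With the covariate, which moves with the groups, the late effect turned sign for Stip1 (2.09), Hspa5 (0.96), Calr (1.86), Cenpe (0.37), Bub1b (1.2), Mir16-2 (-0.02), Mir15b (-2.93), Rny3 (-1.72), U2af1 (-0.61) and Thbs1 (0.99). Of the named genes followed, 62 of 66 late calls and 19 of 31 early calls were made in all 12 fits that left out an array; so were 4 of 24 calls between the days in MEC1 mice (Cstdc4, Ighm, Il1r2 and Stfa2l1), of which 14 were made in under 6 fits, and 1 of 2 in controls (Vegfa). The causes were not tested.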

Other observations

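Xist, the long non-coding RNA of the inactive X chromosome, lay at 5.49, 13.49 and 10.61 in MEC1 mice at 31 d and at 14.33 to 16.17 in every other mouse, while the Y-linked Eif2s3y and Uty lay between 3.74 and 4.90 on every array.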
